A study of Mus musculus with 18 samples.

Results

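The 68 genes described here encode the semaphorins of classes 3 to 7, the ephrins, the Slits and the netrins, with their plexin, neuropilin, Eph, Robo and Unc5 receptors. They were picked by gene symbol from 35275 listed mouse genes, and 67 of the 68 were matched in GENCODE M21. Expression was measured by RNA-seq of polyadenylated RNA in C2C12, an established mouse myoblast line whose cells can fuse into myotubes once serum is reduced. The labels describe the stock as C2C12 PAX7 NEG, and this holds for every group. Control cells are labelled wild-type, MUNC spliced cells overexpress the spliced form of the long noncoding RNA MUNC, and MUNC genomic cells overexpress its genomic form. Each of the 3 kinds of cell was sampled in growth medium (GM, with 20% FBS) and after 3 days in differentiation medium (DM3, with 2% horse serum), with 3 biological replicates in each of the 6 groups. How the overexpressing cells were made, and whether each is 1 clone, is not given in the sources used here, so the form of MUNC and any property of the particular line cannot be told apart. The level of MUNC itself was not analysed here. Groups were taken from the sample titles, and for 9 samples a second label, myoblasts or myotubes, does not match the medium in the title.

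Guidance genes act as pairs of ligand and receptor on neighbouring cells or in the surrounding matrix. Class 3 semaphorins are secreted and bind a neuropilin that signals through an A-type plexin, while most other semaphorins are membrane proteins that bind plexins directly. Ephrins are tethered to the cell surface and signal to Eph receptor tyrosine kinases on contact, with signals also running back into the cell that carries the ephrin. Slits bind Robo receptors, and netrins bind Dcc, neogenin and Unc5 receptors. In muscle these systems are known for steering motor axons and migrating muscle precursors, and several of them act on fusion and on adhesion of myoblasts.

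Promoter sequences are shown for 5 of the genes on which the results turn. Sema3c and Ntn4 were higher than control in both MUNC lines in both media, Epha1 was lower in both, and Sema3d and Slit2 were higher than control in MUNC spliced but not in MUNC genomic cells. Each sequence is the RefSeq window of 250 bases before to 50 bases after the annotated start on GRCm38.p6, printed 5′ to 3′ on the gene's strand. Capitals mark E-boxes with the letters CANNTG, the kind of site that MyoD and myogenin bind. The pattern CANNTG is the same on both strands, although the letters of a single match need not be.
Sema3c: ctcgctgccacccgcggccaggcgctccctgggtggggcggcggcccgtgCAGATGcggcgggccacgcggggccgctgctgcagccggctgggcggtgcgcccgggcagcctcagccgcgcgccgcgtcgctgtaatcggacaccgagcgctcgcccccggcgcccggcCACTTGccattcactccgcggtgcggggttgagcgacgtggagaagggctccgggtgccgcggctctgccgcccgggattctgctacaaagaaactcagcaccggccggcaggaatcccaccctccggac
Ntn4: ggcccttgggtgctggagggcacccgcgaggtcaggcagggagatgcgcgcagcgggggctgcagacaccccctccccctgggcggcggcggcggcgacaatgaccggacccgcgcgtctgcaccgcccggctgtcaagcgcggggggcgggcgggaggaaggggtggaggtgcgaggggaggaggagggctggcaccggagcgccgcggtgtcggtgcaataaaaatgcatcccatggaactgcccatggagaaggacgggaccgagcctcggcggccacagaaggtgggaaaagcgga
Epha1: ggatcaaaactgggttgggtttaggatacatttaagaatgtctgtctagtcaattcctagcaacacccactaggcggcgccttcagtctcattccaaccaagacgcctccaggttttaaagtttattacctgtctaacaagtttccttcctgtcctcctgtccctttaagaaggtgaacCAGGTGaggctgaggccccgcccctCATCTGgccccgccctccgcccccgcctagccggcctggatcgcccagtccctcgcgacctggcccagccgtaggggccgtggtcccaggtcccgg
Sema3d: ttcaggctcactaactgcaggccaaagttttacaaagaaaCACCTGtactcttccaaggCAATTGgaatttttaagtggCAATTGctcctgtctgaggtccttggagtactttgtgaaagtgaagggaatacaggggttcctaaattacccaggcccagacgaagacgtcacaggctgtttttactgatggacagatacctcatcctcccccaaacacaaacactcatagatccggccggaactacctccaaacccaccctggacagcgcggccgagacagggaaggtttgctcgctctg
Slit2: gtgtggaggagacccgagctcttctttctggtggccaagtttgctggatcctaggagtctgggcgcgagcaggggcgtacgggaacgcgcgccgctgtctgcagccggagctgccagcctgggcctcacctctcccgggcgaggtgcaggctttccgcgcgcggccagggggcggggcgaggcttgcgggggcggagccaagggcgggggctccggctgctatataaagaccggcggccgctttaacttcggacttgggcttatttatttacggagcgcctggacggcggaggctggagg
The windows lie at chr5:17574566-17574865, plus strand, for Sema3c, chr10:93640799-93641098, plus strand, for Ntn4, chr6:42373219-42373518, minus strand, for Epha1, chr5:12382916-12383215, plus strand, for Sema3d and chr5:47982905-47983204, plus strand, for Slit2. Sema3c held 2 matches, Epha1 held 2 and Sema3d held 3, whereas the windows of Ntn4 and Slit2 held 0. The RefSeq table had an entry for 59 of the 68 genes, with 75 windows in all. Of those 75 windows, 50.7% held CANNTG, against 72.3% of all 32851 windows of the same length. The form CAGCTG, which is contained in CANNTG, was in 16.0% of the members' windows and in 16.3% of all windows, and in none of the 5 printed here. The window of Sema3d held 8 CG dinucleotides and that of Sema3c, on the same chromosome, held 42. A match is a description of the letters in the window and does not show a bound site.

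Expression is given in FPM, reads scaled to the size of the library, in which 1 read was worth a fixed amount for every gene. Recovered depth was 38416702 to 68788327 reads per library, and a count of 0 allows at most 3 reads, or 0.0757 FPM in the shallowest case. A gene was tested if it reached 0.5 FPM in at least 3 libraries, which 54 of the 68 genes did. The 14 others were Epha5, Epha6, Epha10, Ephb1, Robo3, Robo4, Slit1, Sema4d, Unc5a, Unc5d, Plxnc1, Plxnb3, Ntn3 and Ntn5, none of which exceeded 0.379 FPM in any library. Just inside the filter was Sema5b, at 0.592 FPM in its highest library. The labelled tissue was checked with fixed marker lists. Myf5 and Des, the latter an intermediate filament gene of muscle, were present in every group, but Myod1, Myog, Myh3 and Ckm were each under 0.5 FPM on average in control cells in GM and also in DM3, where the label says myotubes. Differentiation therefore names below only the change of medium from GM to DM3. In control cells it was not accompanied by a rise of these 4 genes to 0.5 FPM. The summed level of the 10 myoblast and myotube markers was 289.9 to 399.5 FPM in control GM and 628 to 942 FPM in control DM3. It was 830.1 to 1789 FPM in MUNC spliced DM3 and 1733 to 1843 FPM in MUNC genomic DM3. Des alone held 820 to 1010 FPM in MUNC genomic DM3, against 37.3 to 94.4 FPM in MUNC spliced DM3. Itga7 was also higher in MUNC genomic DM3, whereas Myf5, Myog, Myh3 and Cdh15 were lower there in every library. Myod1, Chrna1 and Ckm overlapped. Within MUNC spliced DM3, replicate 1 stood apart with 226 FPM of Myog, against 52.6 and 41.0 FPM in the others. Several calls that were lost without it are named below, but not all. Those of Plxna3 and Sema6c against control in DM3 were also lost without it. Among neuronal markers, Rbfox3, Snap25, Elavl4 and Dcx were at 3 reads or fewer in every library of all 6 groups, although the 10 listed genes summed to 99.9 to 112.2 FPM in MUNC genomic GM against 21.3 to 64.8 FPM in control GM. Most of the MUNC genomic sum was Stmn2, at 78.6 to 99.4 FPM against 0.415 to 1.60 FPM in control GM. Map2 and Syt1 were also higher there. Tubb3 went the other way, at 5.72 to 16.4 FPM against 18.8 to 64.0 FPM in control GM. Of 8 endothelial markers, Kdr, Emcn, Cldn5 and Tie1 were at 3 reads or fewer in every library, and the list summed to 4.10 to 7.66 FPM in MUNC genomic cells and to 0.307 to 1.77 FPM in the others. Cdh5 made up most of the MUNC genomic sum, at 3.79 to 7.21 FPM, with the rest of the list under 0.5 FPM there. The 10 fibroblast and mesenchymal markers summed to 4818 to 14224 FPM over the 18 libraries, with Thy1 and Tcf21 at 3 reads or fewer throughout. In DM3 the sums did not overlap, at 7606 to 8173 FPM in control, 12331 to 13604 FPM in MUNC spliced and 5509 to 6247 FPM in MUNC genomic cells. Single markers did not all follow the sum, as Pdgfra and Lum were highest in MUNC genomic DM3 among the DM3 groups. The 8 glial markers summed to 3.38 to 16.1 FPM and the blood markers, 5 of 6 listed, to 2.25 to 6.35 FPM. The part of these differences in the results below was not tested. In bulk RNA, fewer cells of a kind and less RNA per cell cannot be told apart.

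Differences were tested with limma on log2(FPM + 1), in 1 fit of all 13869 genes that passed the filter. Genes under 0.05 after Benjamini-Hochberg adjustment over all of them count as called, and ± after a log2 change is its standard error from that fit, with 3 libraries in each group. On differentiation of control cells, 28 of the 54 genes rose and 9 fell, against 29.6% of all tested genes called higher and 28.6% called lower (58.2% called in all). MUNC spliced cells differed from control in GM in 34 of the 54 genes, 20 of them higher and 14 lower, with 35.5% of all genes called (18.2% higher and 17.3% lower). In DM3 they differed in 37 genes, 16 higher and 21 lower, beside 43.3% of all genes (22.3% higher and 21% lower). MUNC genomic cells differed from control in 24 genes in GM, 13 higher and 11 lower, beside 26.8% of all genes (12.2% higher and 14.5% lower). In DM3 they differed in 26 genes, 11 higher and 15 lower, beside 40.3% of all genes (19.3% higher and 20.9% lower). The median log2 change of the 54 genes was 0.44 on control differentiation, 0.20 and -0.087 in MUNC spliced cells in GM and DM3, and 0.14 and -0.078 in MUNC genomic cells. Over all tested genes the corresponding medians lay between -0.033 and 0.021. Without MUNC spliced DM3 replicate 1, 31 rather than 37 genes were called in MUNC spliced against control in DM3. Counting only calls with an absolute log2 change of at least 1 gave 22 members (18.7% of all genes) on control differentiation, 23 members (7.98% of all genes) in MUNC spliced GM, 13 members (6.58% of all genes) in MUNC genomic GM, 24 members (11.2% of all genes) in MUNC spliced DM3 and 16 members (11.1% of all genes) in MUNC genomic DM3.

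**Figure D1:**
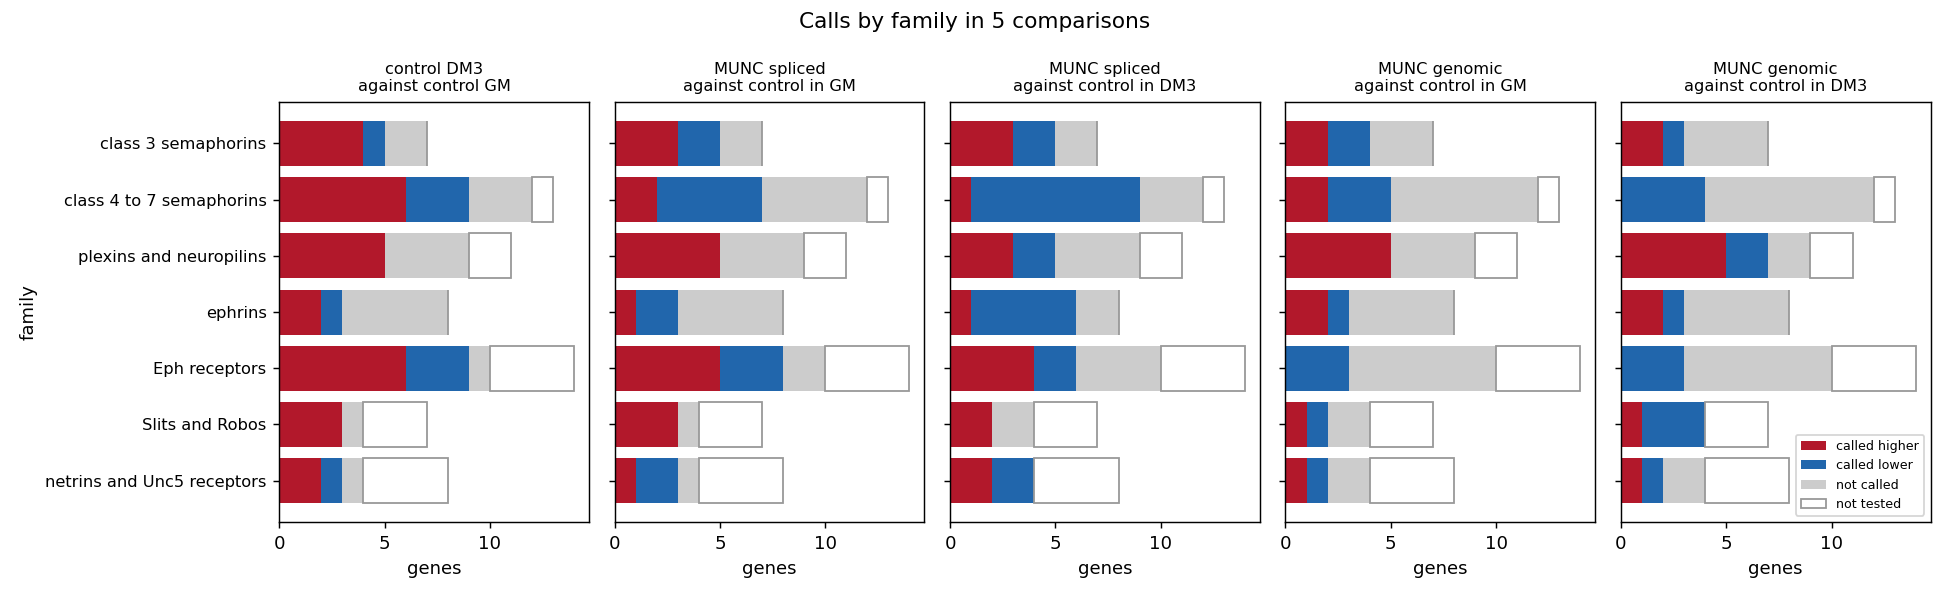
Number of genes of each family (horizontal axis) called higher, called lower, not called or not tested in control DM3 against GM and in each MUNC line against control in the same medium. Class 4 to 7 semaphorins were called lower in MUNC spliced DM3 in 8 of 12 tested genes, beside 21% of all genes. None of the 10 tested Eph receptors was called higher in MUNC genomic cells, where 12.2% of all genes in GM and 19.3% in DM3 were. At those shares few such calls would be found among 10 genes.

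The 2 lines shared some of these differences and split on others. Both lines were set against the same control libraries, and the share of all genes with each pattern of calls was not computed. The lists of shared and opposite calls thus do not show whether these genes differ from others in this. Efnb1, Ntn4, Plxna2, Plxna4, Sema3c and Sema3f were called higher in both lines in both media. Epha1, Sema6d and Sema7a were called lower in both lines in both media. Set directly against each other, the lines differed in GM in 34 of the 54 genes, of which MUNC spliced cells were higher in 19 and lower in 15 (beside 35.8% of all genes called, 19.9% higher and 16% lower). In DM3 they differed in 38 (16 higher and 22 lower, beside 44.2% of all genes called, 23.4% higher and 20.8% lower). With a log2 change of at least 1 in size the direct comparison of the lines gave 16 members (9.11% of all genes) in GM and 26 members (13.2% of all genes) in DM3. Epha4, Epha7, Sema5a and Slit2 were called in opposite directions against control in GM. In DM3 the genes with opposite calls were Efnb2, Epha3, Nrp2, Robo1 and Slit2. Efnb3, Ephb2, Ephb4 and Sema5b were called in none of the 4 comparisons with control. Some of these calls were lost without 1 library. In MUNC genomic GM they were Plxna2 (control GM replicate 1 or any MUNC genomic library), Sema7a (control GM replicate 3 or MUNC genomic replicate 1) and Epha4 (replicate 1 of either group), and in MUNC spliced GM Epha4 (replicate 2 or 3 of either group). In MUNC spliced DM3 they were Plxna4 (control DM3 replicate 1 or 3 or MUNC spliced replicate 1 or 2) and Nrp2 (any control library or MUNC spliced replicate 2 or 3). In MUNC genomic DM3 they were Epha3 (control DM3 replicate 1) and Robo1 (control DM3 replicate 3 or any MUNC genomic library). Those of Epha7 and Sema5a are given with their values.

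**Figure D2:**
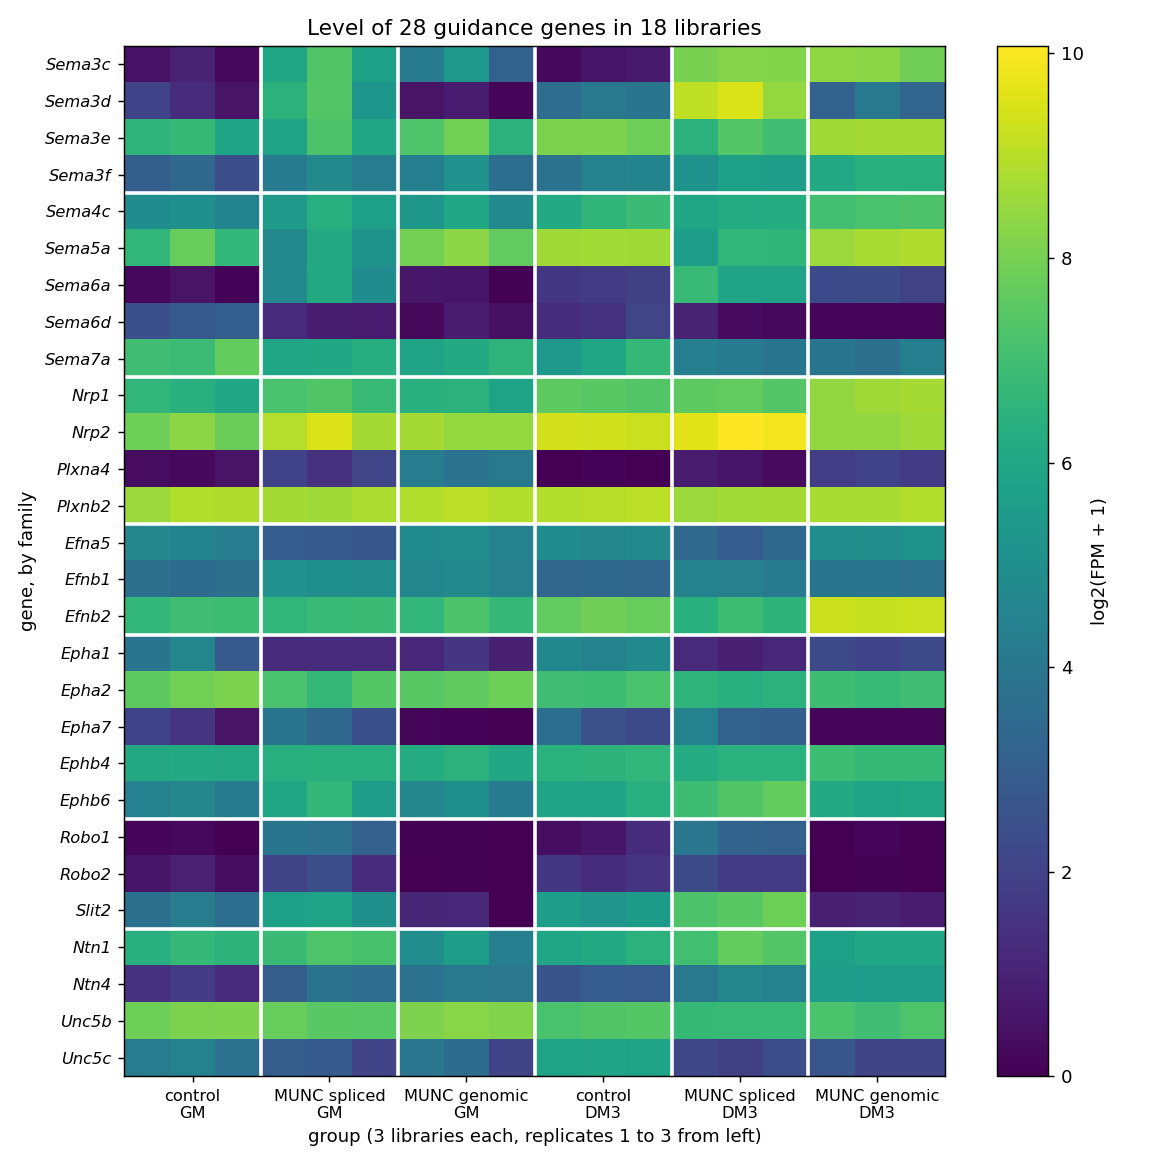
Level of 28 of the genes, as log2(FPM + 1) in colour, in each of the 18 libraries (columns, 3 per group) and ordered by family (rows). Sema3c is dark in all 6 control libraries and brighter in both MUNC lines. Sema3d, Sema6a and Robo1 are each brighter in MUNC spliced cells than in the other cells of the same medium.

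Among the secreted class 3 semaphorins, Sema3c was near 0 in control cells and, in DM3, among the 5 most abundant members per kilobase of exon in both MUNC lines. Its protein binds both neuropilins and is known for guiding neural crest cells into the heart. Control cells held 0.410, 0.991 and 0.154 FPM in GM and 0.192, 0.533 and 0.663 FPM in DM3. MUNC spliced cells held 61.7, 162 and 51.3 FPM in GM and 263, 300.4 and 296 FPM in DM3. MUNC genomic cells held 17.4, 39.9 and 7.67 FPM in GM and 337, 324 and 234 FPM in DM3. Every MUNC library was far above every control library, and the lines were alike in range in DM3 but not in GM. The mean was 177 times that of control in MUNC spliced GM and 41.8 times in MUNC genomic GM. These ratios rest partly on single libraries. Without control GM replicate 2 they were 326 and 76.8, without MUNC spliced GM replicate 2 the first was 109, and without MUNC genomic GM replicate 2 the second was 24.2. In DM3 the log2 change was 7.63 ± 0.45 (SE, adjusted p = 1.76e-09) in MUNC spliced and 7.67 ± 0.45 (SE, adjusted p = 8.13e-10) in MUNC genomic cells. Sema3c did not pass the test on differentiation of control cells (log2 change -0.031), but rose by 1.82 ± 0.45 (SE, adjusted p = 0.00496) in MUNC spliced and by 3.98 ± 0.45 (SE, adjusted p = 3.84e-06) in MUNC genomic cells. In GM its level was higher in MUNC spliced than in MUNC genomic cells by 2.12 ± 0.45 (SE, adjusted p = 0.00147).

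Sema3d, a class 3 semaphorin that acts on neural crest and endothelial cells, was high in MUNC spliced cells alone. It reached 87.1, 167 and 37.8 FPM in their GM libraries and 557, 722 and 354 FPM in DM3. Control cells held 3.02, 1.43 and 0.430 FPM in GM and 10.98, 15.2 and 14.02 FPM in DM3, and MUNC genomic cells held 0.444, 0.743 and 0.105 FPM and 8.07, 15.97 and 8.86 FPM. The libraries of MUNC genomic and control cells overlapped in both media, while those of MUNC spliced cells lay above both. Against control the log2 change in MUNC spliced cells was 5.11 ± 0.45 (SE, adjusted p = 2.65e-07) in GM and 5.19 ± 0.45 (SE, adjusted p = 1.65e-07) in DM3. Differentiation raised it in all 3 kinds of cell, by 2.57 ± 0.45 (SE, adjusted p = 0.000142) in control, 2.65 ± 0.45 (SE, adjusted p = 0.00035) in MUNC spliced and 3.03 ± 0.45 (SE, adjusted p = 4.28e-05) in MUNC genomic cells. Sema3d is one of 4 class 3 genes that lie within 5.35 Mb of chromosome 5 (chr5:12383385-17730268, GRCm38), together with Sema3a, Sema3e and Sema3c.

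The other 2 genes of that stretch followed different courses. Sema3e, whose protein binds plexin D1 without a neuropilin, was at 91.8, 106 and 58.7 FPM in control GM and 269, 281 and 231 FPM in control DM3, a rise of 1.63 ± 0.37 (SE, adjusted p = 0.0012). MUNC spliced cells held 54.6, 151 and 62.2 FPM in GM and 87.1, 164 and 127 FPM in DM3. MUNC genomic cells rose from 158, 242 and 86.9 FPM to 402, 418 and 417 FPM, a change of 1.46 ± 0.37 (SE, adjusted p = 0.00339). In DM3 MUNC spliced libraries were all below control (log2 change -1.08 ± 0.37 SE, adjusted p = 0.025), a call that was lost without control DM3 replicate 1, control DM3 replicate 2 or MUNC spliced DM3 replicate 1, with log2 changes of -1.08 to -0.84 over the alternatives in which it was lost. Sema3a, which makes growth cones collapse and is secreted by muscle satellite cells, averaged 255 FPM in control, 276 FPM in MUNC spliced and 106 FPM in MUNC genomic cells in DM3.

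Sema3f, a ligand of neuropilin 2 encoded on chromosome 9, was higher than control in both lines and rose on differentiation in all 3 kinds of cell. Control libraries held 7.32, 9.36 and 4.41 FPM in GM and 12.6, 20.2 and 22.2 FPM in DM3. In MUNC spliced cells the values were 17.04, 25.8 and 18.4 FPM and 34.2, 51.9 and 48.2 FPM, and in MUNC genomic cells 19.4, 33.6 and 11.4 FPM and 66.01, 82.7 and 78.99 FPM. No MUNC library overlapped with control in the same medium. In MUNC genomic DM3 the log2 change against control was 2.02 ± 0.32 (SE, adjusted p = 9.4e-05). The log2 change in MUNC spliced cells was 1.44 ± 0.32 (SE, adjusted p = 0.00243) in GM and 1.26 ± 0.32 (SE, adjusted p = 0.00466) in DM3, and in MUNC genomic GM it was 1.41 ± 0.32 (SE, adjusted p = 0.00362). Sema3b, its neighbour within 113 kb, averaged 56.1 FPM in control GM and was called lower in both lines in GM, in MUNC genomic cells with a call that was lost without control GM replicate 2 or MUNC genomic GM replicate 1 or 3. Sema3g fell on differentiation of control cells from a mean of 2.17 to 0.525 FPM.

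**Figure D3:**
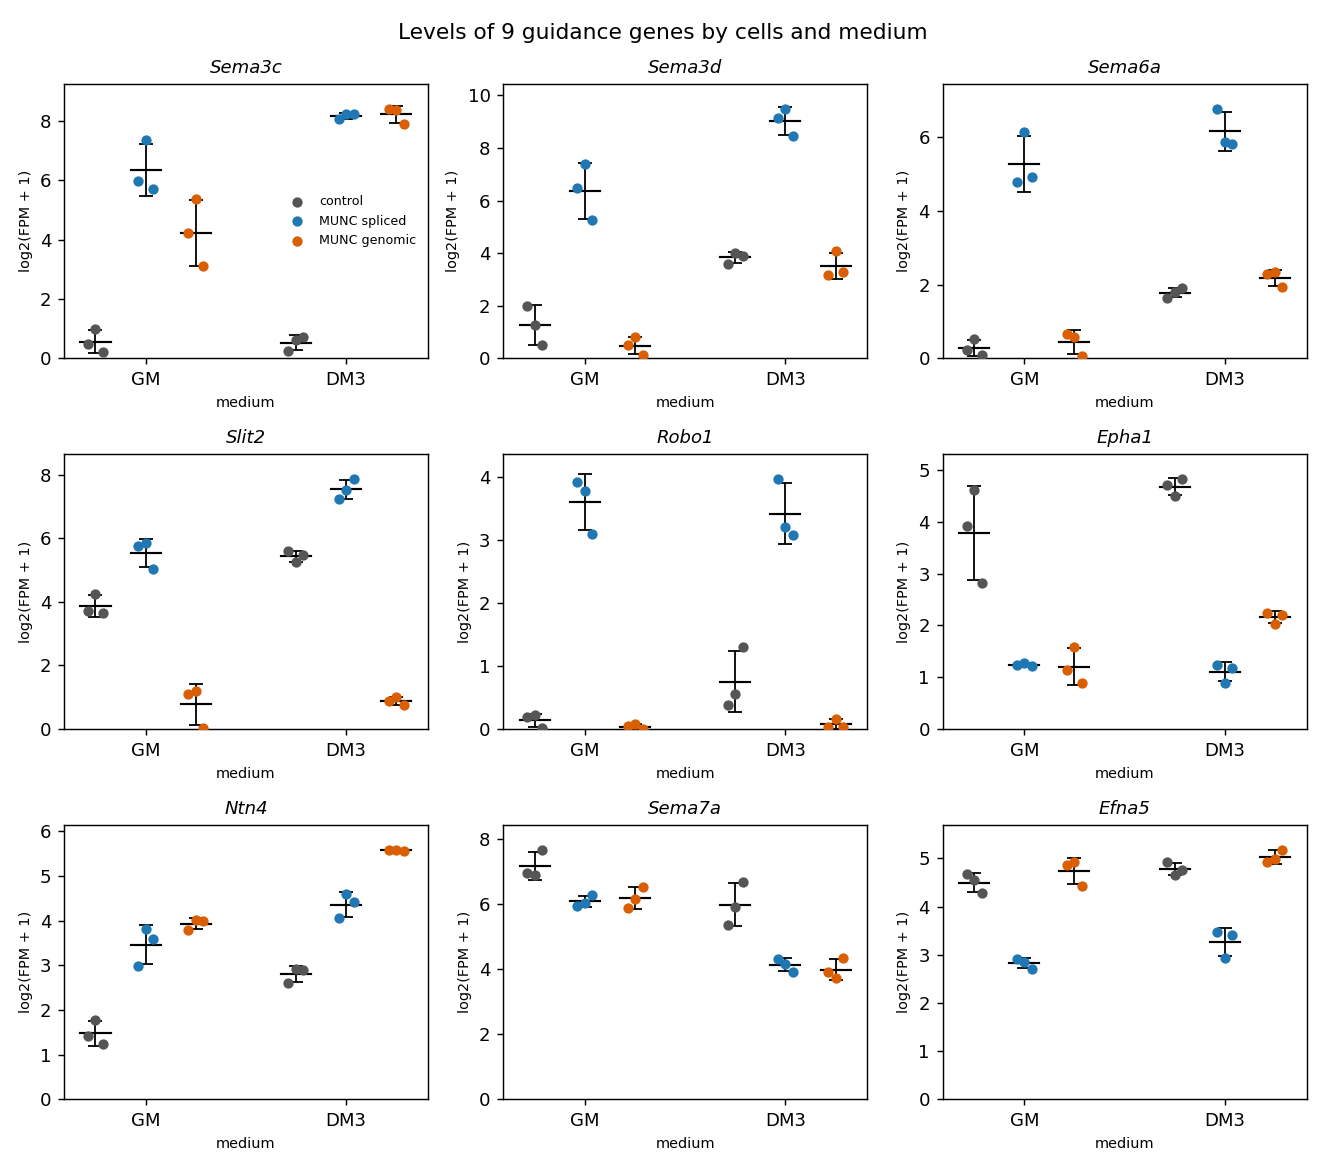
Level of 9 genes as log2(FPM + 1) in GM and DM3, with a point for each library, the mean as a bar and the SD of 3 libraries as whiskers. Sema3c and Ntn4 were called higher than control in both lines, Sema3d, Sema6a and Robo1 in MUNC spliced cells only, and Slit2 was at most 1.27 FPM in MUNC genomic cells.

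In the membrane-bound and anchored semaphorins of classes 4 to 7, most calls in MUNC spliced cells were downward, with 5 of 12 tested genes lower and 2 higher in GM (beside 17.3% lower and 18.2% higher over all genes) and 8 lower and 1 higher in DM3 (beside 21% and 22.3%). Sema6a was the exception in both media, and Sema4c in GM. Sema6a, a transmembrane ligand of plexins A2 and A4, was at 26.2, 69.2 and 29.2 FPM in MUNC spliced GM and at 108, 57.5 and 55.6 FPM in DM3. Control cells held 0.171, 0.442 and 0.0615 FPM in GM and 2.13, 2.49 and 2.73 FPM in DM3, and MUNC genomic cells held 0.573, 0.506 and 0.0420 FPM and 3.86, 4.04 and 2.85 FPM. All MUNC spliced libraries were above all others in the same medium, and in DM3 replicate 1, which stood apart in Myog, was also the highest for Sema6a. The log2 change against control was 4.99 ± 0.31 (SE, adjusted p = 4.22e-09) in GM and 4.37 ± 0.31 (SE, adjusted p = 1.66e-08) in DM3. On differentiation Sema6a rose by 1.50 ± 0.31 (SE, adjusted p = 0.000616) in control and by 1.75 ± 0.31 (SE, adjusted p = 0.000211) in MUNC genomic cells.

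Sema5a, an integral membrane semaphorin with thrombospondin repeats, moved the other way in MUNC spliced cells. Control libraries held 97.9, 210.3 and 99.8 FPM in GM and 394, 411 and 399 FPM in DM3, a rise of 1.65 ± 0.34 (SE, adjusted p = 0.000672). MUNC spliced libraries held 25.9, 69.9 and 34.4 FPM and 47.5, 98.8 and 95.3 FPM, below control with log2 changes of -1.65 ± 0.34 (SE, adjusted p = 0.0015) in GM and -2.37 ± 0.34 (SE, adjusted p = 4.19e-05) in DM3. MUNC genomic libraries held 251, 322 and 202 FPM and 377, 429 and 466 FPM. These overlapped with control in both media, although the difference in GM passed the test (log2 change 0.99, adjusted p = 0.0423). That call was lost without control GM replicate 1 or 3 or MUNC genomic GM replicate 1 or 2, without a filter on low values, with edgeR and with only the groups compared, at 0.80 to 0.9996. MUNC spliced libraries thus lay below those of both other kinds of cell in both media, and their log2 change against MUNC genomic cells was -2.65 ± 0.34 (SE, adjusted p = 1.65e-05) in GM and -2.45 ± 0.34 (SE, adjusted p = 2.35e-05) in DM3.

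Sema7a, a semaphorin anchored by a lipid that binds integrins and plexin C1, fell on differentiation and was lower in both lines. It went from 125, 118 and 205 FPM to 40.1, 60.03 and 103 FPM in control cells (log2 change -1.19 ± 0.28 SE, adjusted p = 0.00185). In MUNC spliced cells it went from 60.4, 65.5 and 76.7 FPM to 19.2, 16.9 and 14.3 FPM (log2 change -1.95 ± 0.28 SE, adjusted p = 0.000105). The fall in MUNC genomic cells was from 57.8, 71.2 and 92.3 FPM to 14.03, 12.3 and 19.3 FPM (log2 change -2.20 ± 0.28 SE, adjusted p = 1.19e-05). In DM3 the log2 change from control was -1.86 ± 0.28 (SE, adjusted p = 6.79e-05) in MUNC spliced and -2.00 ± 0.28 (SE, adjusted p = 3e-05) in MUNC genomic cells, and in GM it was -1.10 ± 0.28 (SE, adjusted p = 0.00685) in MUNC spliced cells. No MUNC library reached the lowest control library of its medium. Plxnc1, the plexin that binds it, did not pass the filter.

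Sema6d, a transmembrane ligand of plexin A1, was low throughout and lower still in both lines. Its values in GM were 4.46, 6.26 and 7.10 FPM in control, 1.31, 0.788 and 0.757 FPM in MUNC spliced and 0.200, 0.726 and 0.357 FPM in MUNC genomic cells. In DM3 control libraries held 1.48, 1.80 and 3.33 FPM, those of MUNC spliced cells 1.01, 0.227 and 0.163 FPM and those of MUNC genomic cells 0.119, 0.120 and 0.117 FPM. Control libraries were above those of both lines in both media. The log2 change against control was -1.82 ± 0.23 (SE, adjusted p = 1.8e-05) in MUNC spliced GM, -2.28 ± 0.23 (SE, adjusted p = 1.3e-06) in MUNC genomic GM, -1.13 ± 0.23 (SE, adjusted p = 0.000907) in MUNC spliced DM3 and -1.47 ± 0.23 (SE, adjusted p = 8.3e-05) in MUNC genomic DM3. On differentiation of control cells its log2 change was -1.14 ± 0.23 (SE, adjusted p = 0.000524).

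Sema4c, which binds plexin B2 and is known to act in differentiating C2C12 myoblasts, rose on differentiation in control and MUNC genomic cells. Control libraries went from 28.7, 32.3 and 22.2 FPM to 70.6, 94.9 and 115 FPM (log2 change 1.70 ± 0.26 SE, adjusted p = 4.37e-05), and MUNC genomic libraries from 39.2, 62.6 and 26.8 FPM to 134, 143 and 153 FPM (log2 change 1.80 ± 0.26 SE, adjusted p = 3.75e-05). In MUNC spliced cells the libraries held 42.96, 78.4 and 50.4 FPM in GM and 60.4, 72.9 and 74.3 FPM in DM3, ranges that overlapped. In DM3 the log2 change of MUNC spliced against MUNC genomic cells was -1.04 ± 0.26 (SE, adjusted p = 0.004). Among the less abundant members, Sema4g averaged 1.32 FPM in MUNC spliced DM3 against 4.35 FPM in control DM3, Sema6b averaged 2.50 against 7.38 FPM and Sema4a 1.60 against 6.53 FPM, all 3 called lower.

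Among the receptors of these ligands, Nrp1, Nrp2 and Plxnb2 were abundant in every group. Among the 9 plexins and neuropilins tested, 5 were called higher and none lower on control differentiation, in MUNC spliced GM and in MUNC genomic GM, where 29.6%, 18.2% and 12.2% of all genes were called higher and 28.6%, 17.3% and 14.5% lower. In DM3 3 were higher and 2 lower in MUNC spliced cells (beside 22.3% and 21% of all genes), and 5 higher and 2 lower in MUNC genomic cells (beside 19.3% and 20.9%). On their own differentiation MUNC spliced cells had 1 higher and 1 lower, and MUNC genomic cells 3 higher and 2 lower (beside 17.2% and 18.4%, and 26.3% and 25.1%, of all genes). Several of these calls did not hold without 1 library. Without MUNC spliced DM3 replicate 1 the calls of Plxna3, Plxnb2 and Plxna4 in that group were lost. In MUNC genomic GM, Plxna1 was lost without control GM replicate 1 or MUNC genomic replicate 2. Nrp2 was lost there without control GM replicate 1 or 3 or MUNC genomic replicate 1 or 2. Plxna1 on control differentiation and Plxnb1 in MUNC genomic DM3 also depended on single libraries. Nrp2, the neuropilin bound by Sema3c and Sema3f, held 231, 318 and 221 FPM in control GM and 676, 656 and 622 FPM in control DM3, a rise of 1.36 ± 0.18 (SE, adjusted p = 1.31e-05). MUNC spliced cells held 488, 748 and 425 FPM in GM and 784, 1077 and 953 FPM in DM3, above control in both media, by 1.08 ± 0.18 (SE, adjusted p = 0.000287) in GM. MUNC genomic cells held 419.7, 352 and 360.3 FPM in GM and 344, 344 and 393 FPM in DM3, ranges that overlapped. In DM3 MUNC genomic libraries were thus below control, and below MUNC spliced libraries by a log2 difference of 1.37 ± 0.18 (SE, adjusted p = 1.48e-05).

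Nrp1, the neuropilin bound by Sema3a and by VEGF, was highest in MUNC genomic cells in DM3. Control libraries rose from 98.02, 84.1 and 64.7 FPM to 189, 179 and 165 FPM (log2 change 1.12 ± 0.17 SE, adjusted p = 4.52e-05). MUNC genomic libraries rose from 82.04, 87.9 and 56.9 FPM to 348, 397 and 416 FPM (log2 change 2.36 ± 0.17 SE, adjusted p = 1.11e-07) and ended 1.12 ± 0.17 (SE, adjusted p = 7.51e-05) above control. MUNC spliced libraries held 143, 159 and 111 FPM in GM and 190.3, 199 and 166 FPM in DM3. In DM3 they overlapped with control, and the log2 change of MUNC spliced against MUNC genomic cells was -1.06 ± 0.17 (SE, adjusted p = 0.000105).

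Plxnb2, a receptor for Sema4c and other class 4 semaphorins, varied little among the abundant members. Its libraries ranged over 374, 478 and 469 FPM in control, 416, 402 and 456 FPM in MUNC spliced and 475, 537 and 481 FPM in MUNC genomic cells in GM. In DM3 control libraries held 475, 514 and 541 FPM, those of MUNC spliced cells 381, 411 and 416 FPM and those of MUNC genomic cells 440.3, 447 and 479.6 FPM. Of the 12 comparisons run, the 1 that called it was MUNC spliced against control in DM3, with a log2 change of -0.34, a call lost without control DM3 replicate 3 or MUNC spliced DM3 replicate 1 and with quantile normalization (-0.30 to -0.24). Plxna4, a receptor for Sema6a that also joins neuropilin complexes, was near 0 in control cells at 0.256, 0.177 and 0.446 FPM in GM and 0, 0.0592 and 0.0184 FPM in DM3. MUNC genomic cells held 17.8, 13.2 and 15.9 FPM in GM and 2.53, 3.07 and 2.48 FPM in DM3. MUNC spliced cells held 3.03, 1.72 and 3.34 FPM and 0.683, 0.505 and 0.235 FPM. Both lines were above control in both media, with MUNC genomic the higher. The log2 change against control was 3.68 ± 0.17 (SE, adjusted p = 4.53e-11) in MUNC genomic GM, 1.85 ± 0.17 (SE, adjusted p = 2.01e-07) in MUNC genomic DM3 and 1.49 ± 0.17 (SE, adjusted p = 4.83e-06) in MUNC spliced GM. On differentiation its log2 change was -2.16 ± 0.17 (SE, adjusted p = 1.83e-07) in MUNC genomic cells and -1.31 ± 0.17 (SE, adjusted p = 3.72e-05) in MUNC spliced cells. Plxnd1, the receptor of Sema3e, averaged 146 FPM in MUNC genomic GM against 55.7 FPM in control GM, and Plxna1 averaged 322 FPM in MUNC genomic DM3 against 168 FPM in control. Of the exon bases of Plxna1, 10.7% are shared with Gm26811.

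**Figure D4:**
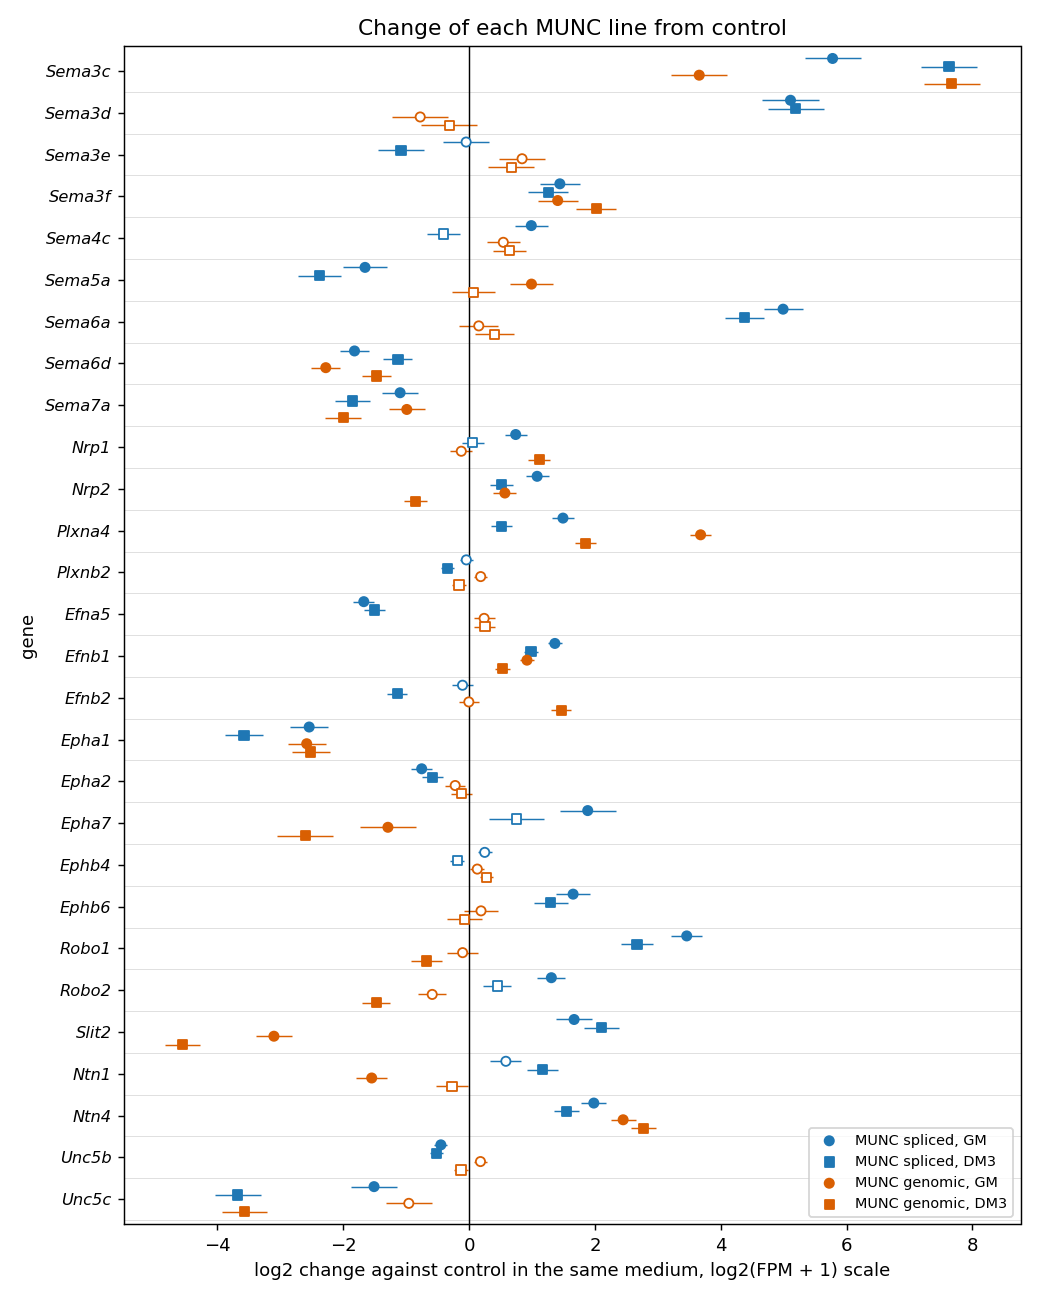
Log2 change of each MUNC line against control in the same medium for the 28 genes, with horizontal bars of 1 standard error. Filled symbols passed the test at an adjusted p under 0.05, and Slit2, Epha7 and Sema5a in GM and Efnb2 in DM3 lie on opposite sides of 0 in the 2 lines.

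Ephrins were led by Efnb2, the membrane-spanning ligand of EphB4, and its level in DM3 separated the 3 kinds of cell completely. In GM it was at 102, 126 and 122 FPM in control, 97.3, 113 and 114 FPM in MUNC spliced and 98.8, 153 and 103 FPM in MUNC genomic cells, with overlapping ranges. In DM3 it was at 198, 239 and 214 FPM in control, 83.1, 122 and 91.1 FPM in MUNC spliced and 620.2, 584 and 597 FPM in MUNC genomic cells. MUNC genomic cells rose on differentiation by 2.36 ± 0.16 (SE, adjusted p = 6.83e-08), control cells by a log2 change of 0.89, and MUNC spliced cells did not pass the test (-0.15). In DM3 the log2 change against control was 1.47 ± 0.16 (SE, adjusted p = 1.66e-06) in MUNC genomic and -1.14 ± 0.16 (SE, adjusted p = 2.98e-05) in MUNC spliced cells. Its receptor gene Ephb4 stayed within a narrow range, from 63.1 to 121 FPM over the 18 libraries, with a mean of 67.9 FPM in control GM. In DM3 its means were 92.2 FPM for control, 80.9 FPM for MUNC spliced and 112 FPM for MUNC genomic cells.

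Efnb1, an X-linked ephrin of the same class, was higher in both lines. Control libraries held 12.02, 10.8 and 12.2 FPM in GM and 8.89, 9.53 and 9.01 FPM in DM3, MUNC spliced libraries 33.5, 31.3 and 30.05 FPM and 20.6, 19.7 and 17.05 FPM, and MUNC genomic libraries 23.8, 25.7 and 19.8 FPM and 14.05, 14.2 and 12.6 FPM. The order was control, MUNC genomic, MUNC spliced in both media with no overlap between neighbours. The log2 change in MUNC spliced GM was 1.36 ± 0.12 (SE, adjusted p = 1.84e-07). Efna5, an ephrin anchored by a lipid, was lower in MUNC spliced cells only, at 6.54, 6.20 and 5.54 FPM in GM and 10.02, 6.59 and 9.64 FPM in DM3. Control cells held 24.4, 22.4 and 18.4 FPM and 29.1, 24.3 and 25.9 FPM, and MUNC genomic cells 28.1, 29.5 and 20.4 FPM and 29.3, 30.6 and 35.3 FPM. The log2 change against control was -1.67 ± 0.17 (SE, adjusted p = 1.22e-06) in GM and -1.51 ± 0.17 (SE, adjusted p = 2.46e-06) in DM3. In MUNC spliced DM3 5 of the 8 ephrins were called lower (beside 21% of all genes), a count that includes Efna4, whose call was lost without control DM3 replicate 2 or MUNC spliced DM3 replicate 1, and also Efna1 at a mean of 7.94 against 17.2 FPM. Efna1, Efna3 and Efna4 lie within 66 kb of chromosome 3, and 14.1% of the exon bases of Efna3 and 10.5% of those of Efna4 are shared with other annotated genes. The summed FPM of the 8 ephrins in DM3 was 286.0 ± 21.6 in control, 146.1 ± 19.7 in MUNC spliced and 677.6 ± 14.6 in MUNC genomic cells (SD, n = 3). Efnb2 alone held 198 to 239, 83.1 to 122 and 584 to 620 FPM of these sums in the same order. The sums are not divided by exon length and mostly follow Efnb2.

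Of the 10 Eph receptors tested, 6 rose and 3 fell on differentiation of control cells (beside 29.6% and 28.6% of all genes). Epha2, an abundant EphA receptor, fell in all 3 kinds of cell. Its libraries went from 188, 245 and 274 FPM to 125, 122 and 145 FPM in control, from 145, 105 and 172 FPM to 92.8, 79.6 and 88.4 FPM in MUNC spliced and from 179, 194 and 229.8 FPM to 122, 112 and 127 FPM in MUNC genomic cells. No GM library overlapped with DM3 of the same cells. Epha1 was lower in both lines. Control libraries held 14.1, 23.6 and 6.07 FPM in GM and 25.2, 21.7 and 27.4 FPM in DM3. In MUNC spliced cells the libraries held 1.36, 1.43 and 1.32 FPM and 1.35, 0.854 and 1.27 FPM, and MUNC genomic libraries 1.19, 2.01 and 0.861 FPM and 3.72, 3.10 and 3.63 FPM. All MUNC libraries were below all control libraries. The log2 change in GM was -2.54 ± 0.30 (SE, adjusted p = 9.56e-06) in MUNC spliced and -2.58 ± 0.30 (SE, adjusted p = 7.31e-06) in MUNC genomic cells, and in DM3 -3.58 ± 0.30 (SE, adjusted p = 1.31e-07) and -2.52 ± 0.30 (SE, adjusted p = 5.27e-06). In DM3 MUNC spliced cells were also below MUNC genomic cells, with a log2 change of -1.06 ± 0.30 (SE, adjusted p = 0.00944). Of the exon bases of Epha1 on chromosome 6, 6.01% are shared with Zyx on the other strand, and whether counting used strand is not given in the sources used here.

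Ephb6, an Eph receptor whose kinase domain is inactive, was higher in MUNC spliced cells and rose on differentiation everywhere. The values were 21.2, 24.3 and 16.2 FPM in control, 61.03, 102 and 45.8 FPM in MUNC spliced and 24.4, 31.7 and 16.2 FPM in MUNC genomic cells in GM. In DM3 control libraries held 57.4, 58.2 and 78.96 FPM, those of MUNC spliced cells 124, 159.6 and 205 FPM and those of MUNC genomic cells 68.1, 55.7 and 59.7 FPM. MUNC genomic and control ranges overlapped in both media, and MUNC spliced lay above both. The log2 change against control was 1.65 ± 0.27 (SE, adjusted p = 0.00022) in GM and 1.30 ± 0.27 (SE, adjusted p = 0.00114) in DM3, and on differentiation Ephb6 rose by 1.61 ± 0.27 (SE, adjusted p = 0.000105) in control, 1.26 ± 0.27 (SE, adjusted p = 0.00216) in MUNC spliced and 1.35 ± 0.27 (SE, adjusted p = 0.000638) in MUNC genomic cells.

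Epha7, a receptor of A-type ephrins, was nearly absent from MUNC genomic cells. These held 0.115, 0.0675 and 0 FPM in GM and 0.139, 0.136 and 0.117 FPM in DM3, whereas control cells held 3.11, 1.96 and 0.430 FPM and 11.3, 4.62 and 3.68 FPM, and MUNC spliced cells 14.1, 9.72 and 4.44 FPM and 20.3, 7.68 and 7.38 FPM. Every MUNC genomic library was below every other library. The log2 change of MUNC genomic against control in DM3 was -2.60 ± 0.44 (SE, adjusted p = 0.000189), that of MUNC spliced against control in GM was 1.89 ± 0.44 (SE, adjusted p = 0.00368), and that of MUNC spliced against MUNC genomic was 3.18 ± 0.44 (SE, adjusted p = 3.57e-05) in GM and 3.36 ± 0.44 (SE, adjusted p = 1.25e-05) in DM3. In GM the difference of MUNC genomic from control was -1.29 ± 0.44 (SE, adjusted p = 0.0408), but this call was lost without control GM replicate 1 or 2 or without any 1 of the 3 MUNC genomic GM libraries, with log2 changes of -1.33 to -0.96 where it was lost. The rise on control differentiation (log2 change 1.41 ± 0.44 SE, adjusted p = 0.0125) was lost without control GM replicate 3 or control DM3 replicate 1 (0.98 in both cases). Epha3, another EphA receptor, averaged 2.92 FPM in GM and 3.45 FPM in DM3 in MUNC spliced cells, and was at 0 or 1 read in each MUNC genomic library.

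Slits and Robos were split between the lines. Slit2, a secreted repellent, was higher than control in MUNC spliced cells and lower than control in MUNC genomic cells, at 1.27 FPM or less. Control libraries held 12.1, 18.1 and 11.6 FPM in GM and 47.2, 37.2 and 43.5 FPM in DM3, a rise of 1.57 ± 0.28 (SE, adjusted p = 0.000182). MUNC spliced libraries held 52.9, 56.8 and 31.5 FPM in GM and 151, 181 and 233 FPM in DM3, a rise of 2.00 ± 0.28 (SE, adjusted p = 8e-05). MUNC genomic libraries held 1.15, 1.27 and 0.0210 FPM and 0.831, 1.02 and 0.702 FPM, and did not pass the test on differentiation. No ranges of 2 kinds of cell overlapped within a medium. Against control the log2 change was 1.67 ± 0.28 (SE, adjusted p = 0.000265) in MUNC spliced GM, -3.10 ± 0.28 (SE, adjusted p = 3.29e-07) in MUNC genomic GM, 2.10 ± 0.28 (SE, adjusted p = 1.86e-05) in MUNC spliced DM3 and -4.55 ± 0.28 (SE, adjusted p = 1.72e-09) in MUNC genomic DM3. In DM3 the mean of MUNC spliced cells was 221 times that of MUNC genomic cells.

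Slit3, a related ligand, was highest in MUNC genomic cells, at a lower level. It had no read in any of the 6 control libraries and averaged 0.825 FPM in GM and 2.05 FPM in DM3 in MUNC genomic cells, at least 15.5-fold and 34.6-fold higher than 3 reads in the shallowest control library of the medium. Without MUNC genomic GM replicate 2 the GM bound was 9.95-fold. In MUNC spliced cells the libraries held 0.0505, 0.165 and 0.108 FPM in GM and 0.133, 0.0523 and 0.0362 FPM in DM3.

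The receptor Robo1 did not exceed 1.46 FPM in any library other than those of MUNC spliced cells. It was at 14.2, 12.7 and 7.57 FPM in their GM libraries and at 14.6, 8.26 and 7.43 FPM in DM3. Control cells held 0.137, 0.159 and 0.0154 FPM in GM and 0.307, 0.473 and 1.46 FPM in DM3, and MUNC genomic cells 0.0286, 0.0506 and 0 FPM and 0.0198, 0.120 and 0.0195 FPM. The log2 change of MUNC spliced against control was 3.46 ± 0.25 (SE, adjusted p = 2.34e-08) in GM and 2.67 ± 0.25 (SE, adjusted p = 3.83e-07) in DM3. Robo2, the neighbouring Slit receptor gene within the same 2.10 Mb of chromosome 16 (chr16:72308306-74411825, GRCm38), was weaker but ordered alike. MUNC spliced libraries held 3.18, 4.36 and 1.41 FPM in GM and 3.87, 2.35 and 2.50 FPM in DM3, control libraries 0.478, 0.885 and 0.277 FPM and 2.07, 1.50 and 1.93 FPM, and MUNC genomic libraries 0, 0.0506 and 0 FPM and 0.0198, 0.0301 and 0 FPM. Against control the log2 change was -1.47 ± 0.22 (SE, adjusted p = 6.5e-05) in MUNC genomic DM3 and 1.31 ± 0.22 (SE, adjusted p = 0.000313) in MUNC spliced GM. Epha3 lies on the same chromosome, so that it and the 2 Robo genes span 10.9 Mb.

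Among the netrins, Ntn1, the secreted ligand of Dcc and Unc5 receptors, was lower in MUNC genomic GM and higher in MUNC spliced DM3. Its values in GM were 81.2, 103 and 89.8 FPM in control, 117, 156 and 140 FPM in MUNC spliced and 29.9, 48.7 and 19.2 FPM in MUNC genomic cells. In DM3 control libraries held 61.4, 69.2 and 88.2 FPM, those of MUNC spliced cells 129, 205 and 166 FPM and those of MUNC genomic cells 52.1, 63.5 and 63.9 FPM. MUNC spliced libraries were above control in both media, and MUNC genomic libraries were below control in GM and overlapped with it in DM3. The log2 change was -1.55 ± 0.25 (SE, adjusted p = 0.000201) in MUNC genomic GM and 1.17 ± 0.25 (SE, adjusted p = 0.00124) in MUNC spliced DM3, and the lines differed by 2.13 ± 0.25 (SE, adjusted p = 5.04e-06) in GM and 1.44 ± 0.25 (SE, adjusted p = 0.000175) in DM3. Dcc, the classical netrin receptor, had no read in any of the 18 libraries.

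Ntn4, a netrin that resembles laminins and binds them, was higher in both lines and rose on differentiation in every kind of cell. Control libraries held 1.67, 2.44 and 1.37 FPM in GM and 5.11, 6.53 and 6.48 FPM in DM3 (log2 change 1.33 ± 0.20 SE, adjusted p = 3.69e-05). In MUNC spliced cells the libraries held 6.86, 13.1 and 11.1 FPM and 15.6, 23.3 and 20.5 FPM. MUNC genomic libraries held 12.9, 15.2 and 14.8 FPM and 47.2, 46.9 and 46.4 FPM (log2 change 1.65 ± 0.20 SE, adjusted p = 7.29e-06). All MUNC libraries were above control in the same medium. Against control the log2 change was 1.98 ± 0.20 (SE, adjusted p = 1.47e-06) in MUNC spliced GM, 2.45 ± 0.20 (SE, adjusted p = 9.66e-08) in MUNC genomic GM, 1.55 ± 0.20 (SE, adjusted p = 1.33e-05) in MUNC spliced DM3 and 2.77 ± 0.20 (SE, adjusted p = 1.19e-08) in MUNC genomic DM3.

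The netrin receptors Unc5b and Unc5c diverged. Unc5b was the more abundant and fell on differentiation everywhere, from 229, 269 and 276 FPM to 143, 161 and 169 FPM in control, from 209, 181 and 176 FPM to 106, 114 and 109 FPM in MUNC spliced and from 281, 307 and 288 FPM to 149.8, 127 and 157 FPM in MUNC genomic cells. The log2 change in MUNC genomic cells was -1.01 ± 0.10 (SE, adjusted p = 2e-06), and no GM library overlapped with DM3. Unc5c rose in control cells from 17.7, 20.4 and 13.1 FPM to 57.1, 57.4 and 55.7 FPM (log2 change 1.70 ± 0.36 SE, adjusted p = 0.000822). It was at 6.92, 6.23 and 3.23 FPM and 3.55, 2.77 and 4.36 FPM in MUNC spliced cells and at 14.4, 10.8 and 3.21 FPM and 5.52, 3.22 and 3.18 FPM in MUNC genomic cells, so that no MUNC library in DM3 came near control. The log2 change against control in DM3 was -3.68 ± 0.36 (SE, adjusted p = 7.5e-07) in MUNC spliced and -3.57 ± 0.36 (SE, adjusted p = 7.58e-07) in MUNC genomic cells, and in GM it was -1.51 ± 0.36 (SE, adjusted p = 0.00431) in MUNC spliced cells.

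The change on differentiation itself was then compared between kinds of cell. MUNC spliced cells changed in 19 of the 54 genes from GM to DM3, 13 higher and 6 lower, beside 35.6% of all genes (17.2% higher and 18.4% lower). MUNC genomic cells changed in 33, 21 higher and 12 lower, beside 51.4% of all genes (26.3% higher and 25.1% lower). Ephb3, Ephb6, Ntn4, Sema3d, Sema3f and Sema6a rose in all 3 kinds of cell, and Efnb1, Epha2, Sema7a and Unc5b fell in all 3. The share of all genes that did so was not computed. The rise of Sema3f in MUNC spliced cells (log2 change 1.10 ± 0.32 SE, adjusted p = 0.0143) was lost without MUNC spliced GM replicate 1 or 3 or MUNC spliced DM3 replicate 2 or 3, at log2 changes of 0.98 to 1.03. That of Sema6a in MUNC spliced cells was lost with other pseudocounts, without a filter, with edgeR and DESeq2, with only the groups compared, and without MUNC spliced GM replicate 1 or 3 or MUNC spliced DM3 replicate 1, at 0.57 to 0.90. The fall of Efnb1 in control cells was lost with only the groups compared and without replicate 1 or 3 of either medium, at -0.32 to -0.29. The test of the difference from control, the interaction, called 9 genes for MUNC spliced (1 higher and 8 lower, beside 14.4% of all genes called, 7.43% higher and 6.94% lower). It called 14 for MUNC genomic (6 higher and 8 lower, beside 8.81% of all genes called, 3.56% higher and 5.25% lower). Between the 2 lines the response differed in 11 genes (3 higher and 8 lower in MUNC spliced, beside 10.5% of all genes called, 5.36% higher and 5.17% lower). With a log2 difference of at least 1 in size, the counts were 9 members (9.03% of all genes) for the change in MUNC spliced cells, 15 members (14.8% of all genes) for the change in MUNC genomic cells, 5 members (5.5% of all genes) and 10 members (4.33% of all genes) for the interactions of MUNC spliced and MUNC genomic, and 6 members (4.95% of all genes) between the lines. The counts of called interactions and of responses that differed between the lines depended on single libraries: the first fell to 5 without control DM3 replicate 2, the second to 8 or 9 without control GM replicate 3, control DM3 replicate 2 or 3, MUNC genomic GM replicate 1 or MUNC genomic DM3 replicate 1 or 3, and the third to 6 or 7 without MUNC genomic GM replicate 1 or 3 or MUNC genomic DM3 replicate 1 or 3.

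Efnb2 responded differently in all 3 kinds of cell. The difference of its change from that of control cells was -1.04 ± 0.23 (SE, adjusted p = 0.00795) in MUNC spliced and 1.47 ± 0.23 (SE, adjusted p = 0.000566) in MUNC genomic cells, and the difference of MUNC spliced from MUNC genomic cells was -2.51 ± 0.23 (SE, adjusted p = 3.61e-06). Nrp1 rose more in MUNC genomic than in control cells, by 1.24 ± 0.24 (SE, adjusted p = 0.00404), and for Nrp2 the difference was -1.42 ± 0.26 (SE, adjusted p = 0.00236). For Unc5c the interaction was -2.17 ± 0.51 (SE, adjusted p = 0.0125) in MUNC spliced and -2.61 ± 0.51 (SE, adjusted p = 0.00406) in MUNC genomic cells. The rise of control cells was not found in either line, where the log2 changes were -0.47 and -0.91. Sema3c rose more in MUNC genomic than in control cells by 4.01 ± 0.63 (SE, adjusted p = 0.000669).

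**Figure D5:**
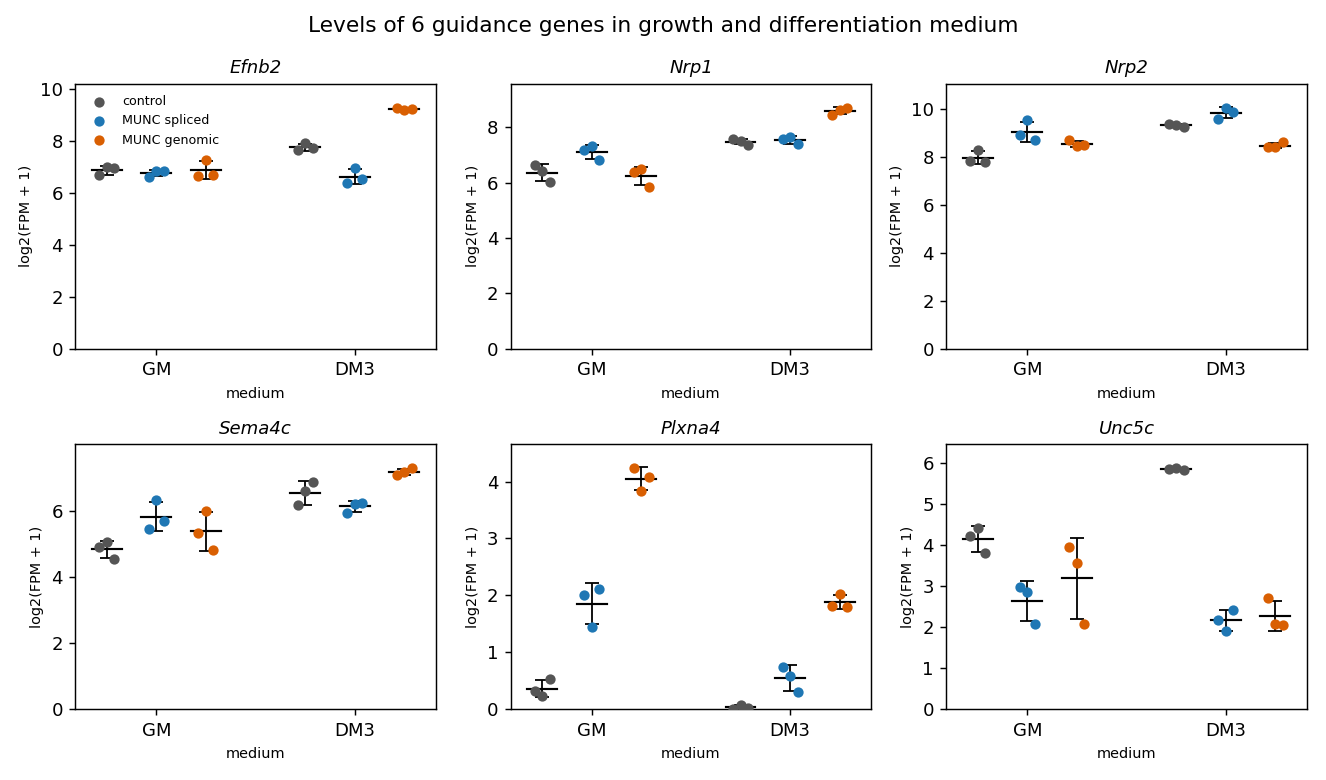
Level of 6 genes as log2(FPM + 1) in GM and DM3, with a point for each library, the mean as a bar and the SD of 3 libraries as whiskers. Efnb2 and Nrp1 end highest in MUNC genomic cells, Nrp2 in MUNC spliced cells and Unc5c in control cells, where it rose.

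For an order of levels between genes, FPM was divided by kilobases of exon, with the length taken over all annotated exons of a gene together. The choice of the 3 top members of each family and the summed levels above used FPM not divided by length. Where the expressed transcript is shorter than that, the scale understates its level. On that scale of mean FPM per kilobase Plxnb2 led in control GM (56.99), followed by Epha2 (50.4), Sema7a (45.3) and Unc5b (41.2). Relative to the SDs over 3 libraries, which in FPM were 57.6, 43.8, 48.1 and 25.2, these neighbours in the order overlapped in their libraries per kilobase. In control DM3 Plxnb2 (66.04) and Nrp2 (55) stood above Efnb2 (31.7). In MUNC spliced DM3 the highest were Nrp2 (79.2), Sema3d (63.3), Plxnb2 (52.2), Ephb6 (43.1) and Sema3c (40.1). Of these, Sema3d and Sema3c are the ligands that control cells held at 1.56 and 0.0648 FPM per kilobase in the same medium. In MUNC genomic DM3 Efnb2 led (87.6), followed by Plxnb2 (59), Sema3e (44.4), Sema3c (41.8) and Nrp1 (39.6). Slit2 and the Robo genes were weak on this scale, with Slit2 at 7.41 and Robo1 at 0.612 in MUNC spliced DM3.

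Genes of the same pathways outside the 68 were counted from lists chosen for their function. Of 22 further receptors and co-receptors, 12 passed the filter. None was called higher and 3 lower in MUNC spliced GM (beside 18.2% and 17.3% of all genes), 1 higher and 7 lower in MUNC spliced DM3 (beside 22.3% and 21%), 1 higher and 4 lower in MUNC genomic GM (beside 12.2% and 14.5%), and 2 higher and 5 lower in MUNC genomic DM3 (beside 19.3% and 20.9%). The genes named here and in the next paragraph were chosen after their values were seen. L1cam is an adhesion molecule that forms a complex with neuropilin 1. L1cam averaged 165 ± 53.3 FPM in control, 2.91 ± 0.906 FPM in MUNC spliced and 34.2 ± 3.79 FPM in MUNC genomic cells in GM (SD, n = 3), with log2 changes against control of -5.38 ± 0.24 (SE, adjusted p = 1.07e-10) and -2.18 ± 0.24 (SE, adjusted p = 3.98e-06). Flrt2, a ligand of Unc5 receptors, averaged 399 ± 26.99 FPM in control and 59.02 ± 10.9 FPM in MUNC genomic cells in DM3 (log2 change -2.75 ± 0.14 SE, adjusted p = 2.04e-10). Neo1, the netrin receptor neogenin, averaged 236 ± 6.33 FPM in control, 106 ± 15.7 FPM in MUNC spliced and 149 ± 11.5 FPM in MUNC genomic cells in DM3.

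Of 40 genes that act downstream of guidance receptors, 37 were tested. Against control, 8 were called higher and 4 lower in MUNC spliced GM, 9 and 9 in MUNC spliced DM3, 10 and 4 in MUNC genomic GM, and 15 and 5 in MUNC genomic DM3. The shares of all genes called higher and lower were 18.2% and 17.3%, 22.3% and 21%, 12.2% and 14.5%, and 19.3% and 20.9% in the same order. Chn2, a chimaerin that lowers Rac activity, averaged 2.75 ± 0.228 FPM in control, 20.4 ± 1.90 FPM in MUNC spliced and 31.6 ± 0.573 FPM in MUNC genomic cells in GM, with log2 changes of 2.51 ± 0.12 (SE, adjusted p = 1.68e-10) and 3.12 ± 0.12 (SE, adjusted p = 4.36e-12). Srgap3, a GTPase-activating protein of the Slit-Robo pathway, averaged 27.1 ± 1.24 FPM in control and 98.4 ± 2.01 FPM in MUNC genomic cells in DM3 (log2 change 1.82 ± 0.20 SE, adjusted p = 1.4e-06). In MUNC genomic DM3 Slit2 held 0.702 to 1.02 FPM and Slit3 1.69 to 2.50 FPM, with Robo1 and Robo2 at most 0.120 and 0.0301 FPM. Vav3, an exchange factor recruited by Eph receptors, averaged 41.4 ± 2.58 FPM in control and 9.73 ± 1.27 FPM in MUNC spliced cells in DM3 (log2 change -1.99 ± 0.19 SE, adjusted p = 4.04e-07).

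The authors' deposited tables gave an adjusted p for 57 to 61 of the 68 genes in each of 5 comparisons. In them 26 genes were higher and 9 lower on control differentiation, 23 and 14 in MUNC spliced GM, 16 and 22 in MUNC spliced DM3, 14 and 12 in MUNC genomic GM, and 15 and 16 in MUNC genomic DM3, by the authors' own test at an adjusted p under 0.05. Over all genes with an adjusted p in the authors' deposited tables, the shares called were 43.2%, 25.3%, 33.1%, 19.9% and 39.3% in that order.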

How the data were processed

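RNA-seq of polyadenylated RNA was analysed in 18 libraries, 3 biological replicates in each of 6 groups, grouped by the sample titles. The deposited expression table gives a signal per gene, FPM, that the authors made by scaling read counts to library size, without dividing by gene length. A label calls it FPKM, but every value was a whole number of reads within 0.05 read (100% of values), so reads could be recovered. STAR, HTSeq, DESeq2 and the mm10 build are named in the submitters' processing notes without role or version, and the annotation and strand setting are not given in the sources used here. The authors' deposited comparison tables hold log2 fold changes, p-values and adjusted p-values, and further columns of score type (a mean level and a test statistic), per the file headers. Of these, only the direction and the adjusted p-value of the members were used.

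Values were tested as log2(FPM + 1) with limma 3.58.1 in R 4.3.3, using group means of all 18 libraries, empirical Bayes moderation with a trend, and Benjamini-Hochberg adjustment over the 13869 genes that reached 0.5 FPM in 3 or more libraries. Fold changes on this scale understate the change of weakly expressed genes. Library depth was 38416702 to 68788327 recovered reads. The floor of 3 reads covers counting error only. edgeR 4.0.16 and DESeq2 1.42.0 on recovered reads, other pseudocounts and filters, a replicate block, and leaving out each library were alternatives. On simulated data of the same size the test recovered 100% of 4-fold and 56% of 2-fold changes (100 genes each). In the simulation no other gene changed, all genes had the same setting for spread, and same-numbered libraries shared nothing. The data differ in these points, so the rates need not hold for them.

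Genes were matched by identifier to GENCODE M21 (GRCm38), 34490 of 35275. Values in every library are given for members that passed the filter and met 1 of 2 conditions. They were among the 3 of their family with the highest group mean FPM, not divided by length, or were called with an absolute log2 change of at least 2 and at least 3 FPM in the higher group. Tests are given where such a member was called with an absolute log2 change of at least 1, and other members by counts or single values. The members, gene lists and rules were chosen with earlier results of these data known.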

Additional observations from a re-analysis of the deposited data

Results flagged for a closer look

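In 20 instances among the genes given library by library, the change on differentiation differed between kinds of cell by an interaction test in limma (adjusted p under 0.05 over all tested genes). Over all tested genes, 14.4% were called for MUNC spliced, 8.81% for MUNC genomic and 10.5% between the lines. The genes given library by library were chosen partly by calls in these same libraries. Their count of 20 is thus no measure of how often guidance genes differ. All values are differences of log2 changes, with 3 libraries in each of the 4 groups behind them. For MUNC spliced against control they were -1.04 for Efnb2, -1.39 for Sema4c, -0.98 for Plxna4 and -2.17 for Unc5c. The receptor gene Unc5c rose in control cells and did not pass the test for a rise in MUNC spliced cells, and Sema4c passed the test for a rise in control but not in MUNC spliced cells. The call for Sema4c was lost without control GM replicate 3, MUNC spliced GM replicate 2 or control DM3 replicate 2 or 3, at -1.37 to -1.15. That for Plxna4 was lost with a pseudocount of 0.1 (-0.70), and its sign reversed with edgeR (0.978) and DESeq2 (1.05).

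For MUNC genomic against control the positive differences were 1.47 for Efnb2, 1.28 for Ntn1, 1.24 for Nrp1 and 4.01 for Sema3c. The negative ones were -1.42 for Nrp2, -1.83 for Plxna4, -1.45 for Slit2 and -2.61 for Unc5c. For Plxna4 the call was lost with a pseudocount of 0.1 (-0.88), and the sign reversed with edgeR (0.91) and DESeq2 (0.9997). Slit2 was at most 1.27 FPM in MUNC genomic cells in both media, where its log2 change on differentiation was 0.12, against 1.57 in control cells. The call for Slit2 was lost with other pseudocounts, without a filter, with edgeR and DESeq2 and without each of 8 libraries, namely control GM replicates 1 and 3, control DM3 replicates 1 and 3, MUNC genomic GM replicates 1 and 2 and MUNC genomic DM3 replicates 1 and 3, at -1.57 to -0.95. The call for Ntn1 was lost without a filter, with edgeR, and without control GM replicate 2 or 3, control DM3 replicate 1 or 2, MUNC genomic GM replicate 1 or 3 or MUNC genomic DM3 replicate 2 or 3, at 0.96 to 1.29.

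Between the lines, MUNC spliced less MUNC genomic, the differences were -2.51 for Efnb2, -1.92 for Nrp1, -1.49 for Sema4c, -2.16 for Sema3c and -0.58 for Ephb4. They were 0.86 for Nrp2, 0.85 for Plxna4 and 1.88 for Slit2. The calls for Efnb2, Nrp1 and Sema4c were kept under every alternative run other than the fold threshold. The call for Nrp2 was lost with a pseudocount of 0.1, without a filter, with equal sums, quantile normalization, edgeR and only the groups compared, and without MUNC spliced GM replicate 1 or 3, MUNC spliced DM3 replicate 2 or 3 or any 1 MUNC genomic library, at 0.69 to 0.92. The call for Plxna4 was lost with pseudocounts of 0.1 and 0.5, without a filter, with quantile normalization, edgeR, DESeq2 and only the groups compared, and without MUNC spliced GM replicate 2, MUNC spliced DM3 replicate 1 or 2 or replicate 1 or 3 of MUNC genomic cells in either medium, at 0.05 to 0.85. Its mean in DM3 over that in GM was 0.176 in MUNC spliced and 0.172 in MUNC genomic cells. The call for Ephb4 was lost with only the groups compared and without MUNC spliced GM replicate 2, MUNC genomic GM replicate 3 or replicate 1 of either line in DM3, at -0.58 to -0.47. The call for Sema3c was lost with pseudocounts of 0.1 and 0.5, without a filter, with edgeR, DESeq2 and only the groups compared, and without MUNC spliced GM replicate 2, MUNC genomic GM replicate 1 or 3, or any 1 DM3 library of either line, at -2.33 to -1.61 over the settings in which it was lost. The call for Slit2 was lost with a pseudocount of 0.1, edgeR and DESeq2, at 1.35 to 2.01.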

How the results depend on the processing

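Of 316 calls made for single members over 12 comparisons, 240 were kept under every alternative other than the fold threshold. Over 4944 values 401 lost the call and 4 reversed, all for the interactions of Plxna4. With edgeR and DESeq2 these were 0.978 and 1.05 in MUNC spliced (adjusted p = 0.456 and 0.444) and 0.91 and 0.9997 in MUNC genomic cells (adjusted p = 0.572 and 0.563). Of the 76 calls lost or reversed under some alternative, 21 were interactions or line differences in response, and those of genes given library by library are named with their values. The causes were not tested. The line difference in response was lost in 16 settings for Nrp2 (0.69 to 0.92), 15 for Sema3c (-2.33 to -1.61) and 14 for Plxna4 (0.05 to 0.85), and the interaction of Slit2 in MUNC genomic cells in 13 (-1.57 to -0.95). Requiring an absolute log2 change of at least 1 left 22 members called on control differentiation, 9 and 15 on that of MUNC spliced and MUNC genomic cells, 13 in MUNC genomic GM, 24 and 16 in MUNC spliced and MUNC genomic DM3, 16 between the lines in GM, and 5 and 6 for the MUNC spliced interaction and the line difference in response. The MUNC genomic interaction called 9 members without a filter and 8 with edgeR, and the line difference in response called 5 with edgeR and 7 with a pseudocount of 0.1. With the replicate block the MUNC spliced interaction called 16 members (27.9% of all genes), that of MUNC genomic 20 (16.3%) and the line difference in response 17 (19.6%), against 9, 14 and 11 without it. Same-numbered libraries correlated at -0.0569 to 0.727 in 45 pairs (median 0.291, against -0.124 for different numbers), and 17 of 18 libraries correlated best with their own number. Not every pair was over 0.1 (36 of 45 were), the criterion used for taking the numbers as pairs, and the labels state no pairing. The fit without the block is thus the one reported, although it leaves the part shared by same-numbered libraries in the spread. With the block more members, and more of all genes, were called in each of the 12 comparisons. In MUNC spliced GM it called 41 members (46.6% of all genes) against 34 (35.5%), and in MUNC genomic GM 31 (37.4%) against 24 (26.8%). Leaving out 1 library gave 5 to 12 members for the MUNC spliced interaction, 8 to 14 for that of MUNC genomic and 6 to 11 for the line difference in response.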
